A study of Mus musculus with 42 samples.

Results

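The 10 genes described here encode the 5 NF-kappaB subunits and 5 of their inhibitors, and were read from bone-marrow-derived macrophages (BMDM) as rows of a raw count table whose Ensembl identifiers map to the symbols Nfkb1, Nfkb2, Rel, Rela, Relb, Nfkbia, Nfkbib, Nfkbie, Nfkbiz and Tnfaip3. The table held 37310 identifiers, of which 11624 had enough counts to be tested, and all 10 genes were among them. BMDM were grown from bone marrow of male C57BL/6 mice, in medium conditioned by L929 fibroblasts, and were labelled WT or KO for Irf5. The KO is a myeloid deletion in which Cre recombinase, driven by the lysozyme M promoter, acts on floxed Irf5 alleles. There were 14 groups of 3 libraries. For each genotype these were Control at 0 h, 2 h and 24 h, palmitate (a saturated fatty acid) at 2 h and 24 h, and lipopolysaccharide (LPS, a bacterial ligand of Toll-like receptor 4) at 2 h and 24 h. Whether Control cells received the albumin and solvent that carry palmitate is not given in the sources used here, and nothing says that the 3 libraries of a group came from separate mice or cultures, so p-values measure the spread between these libraries.

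The libraries held 2848790 to 7743440 counts, and 3 counts were worth 0.387 to 1.05 CPM, the count of a gene scaled to the size of its library. Irf5, read as a gene total, lay at 209 to 388 CPM in the 21 libraries labelled WT and at 267 to 430 CPM in the 21 labelled KO. Within conditions every KO library lay above every WT library in 6 of 7, for example at 279 to 327 CPM against 209 to 230.1 CPM in Control at 0 h. Irf5 shares 411 exonic bases with Tnpo3 on the other strand, which had a mean of 336 counts and at most 436. Reads within the shared bases cannot be assigned to 1 of these genes without the strand setting of the counting. A total over all exons does not check a deletion of part of a gene, and the genotype is therefore given throughout as it was labelled. All 8 macrophage markers were detected in every library. Summed markers of neutrophils and their precursors (8 genes) separated the genotypes in 7 of 7 conditions, with all KO libraries above all WT libraries, over a whole range of 19.2 to 203 CPM. Of its genes S100a8, S100a9, Ngp and Ltf reached 21.3, 60.1, 54.6 and 72.1 CPM. Elane and Ly6g were at 0 in 22 and 40 of the 42 libraries, and Camp had a median of 0.667 CPM. The neutrophil list below is therefore the sum of these transcripts and not a measure of neutrophil number. The fibroblast list (5 genes) ranged from 0 to 286 CPM, and of its genes Col1a1 and Col1a2 reached 195 and 90.3 CPM, whereas Dcn and Lum were at 0 in 36 and 41 of the 42 libraries. In 26 of 42 libraries the highest correlation with another group was at least as high as the median with the library's own group. This sets the highest of many values against a median, so it does not show that groups were mixed. For every LPS library the nearest other group was LPS of the same time with the other genotype label.

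NF-kappaB proteins act as dimers that inhibitors of the IkB family hold in the cytoplasm. Ligands of Toll-like receptors activate the IkB kinase complex, the classical IkB proteins are phosphorylated and degraded, and the dimers enter the nucleus to switch on inflammatory genes. Several inhibitors are themselves NF-kappaB targets, so that the pathway contains negative feedback at the level of transcription, and macrophages exposed to LPS are a standard setting in which this is seen.

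Promoter windows are shown first because NF-kappaB dimers bind a short DNA motif that can be read from them. RefSeq windows of 300 bases (250 before and 50 after a start site, GRCm38.p6) were given for 7 of the 10 genes, with 10 windows in all. Nfkb1, Relb and Nfkbiz had no entry. The 10-base kappaB consensus was searched on both strands and was found in 7 of the 10 windows, belonging to 5 of the 7 genes (Nfkb2, Rel, Nfkbia, Nfkbie and Tnfaip3). Of all 32851 windows in the table, 1480 (4.51%) held it, and 5.14% of all genes had a window with it. The windows of Rela and Nfkbib did not hold it. Overlapping windows of Nfkb2 shared a match, so the windows with a match are not all separate finds. An interferon-response type repeat, GAAANNGAAA on either strand, was in 0 of the 10 windows and in 3.44% of all windows. A match is a description of the letters in the window, and its relation to expression was not tested. With LPS at 2 h in WT, the genes without a match rose 2.52-fold (Rela) and 3.99-fold (Nfkbib). Those with a match rose from 3.74-fold (Nfkb2) to 22-fold (Tnfaip3), so the ranges overlapped. The stretches below hold no annotated exon of their own gene and are written 5′ to 3′ on the strand of the gene, with kappaB matches in capitals. Exons of other genes were not checked. They are the inhibitor genes Nfkbia (chr12:55492648-55492897, minus strand), Nfkbie (chr17:45555450-45555699, plus strand) and Tnfaip3 (chr10:19015411-19015547, minus strand), the subunit gene Rel (chr11:23770971-23771219, minus strand), and Rela (chr19:5637291-5637482, plus strand), the gene with the smallest LPS effect at 2 h and no match.
Nfkbia: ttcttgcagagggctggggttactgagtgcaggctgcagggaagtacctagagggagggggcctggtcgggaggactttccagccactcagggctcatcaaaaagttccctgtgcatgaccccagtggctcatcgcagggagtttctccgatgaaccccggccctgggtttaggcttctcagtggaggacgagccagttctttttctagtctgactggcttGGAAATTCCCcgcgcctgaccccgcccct
Nfkbie: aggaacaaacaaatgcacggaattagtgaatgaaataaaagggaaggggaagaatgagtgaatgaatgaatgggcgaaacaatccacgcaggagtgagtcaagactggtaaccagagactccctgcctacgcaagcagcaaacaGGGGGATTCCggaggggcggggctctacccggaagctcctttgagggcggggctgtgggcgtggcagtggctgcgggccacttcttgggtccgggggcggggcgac
Tnfaip3: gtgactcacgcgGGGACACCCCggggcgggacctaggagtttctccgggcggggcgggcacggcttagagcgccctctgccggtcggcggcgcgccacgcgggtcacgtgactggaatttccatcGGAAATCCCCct
Rel: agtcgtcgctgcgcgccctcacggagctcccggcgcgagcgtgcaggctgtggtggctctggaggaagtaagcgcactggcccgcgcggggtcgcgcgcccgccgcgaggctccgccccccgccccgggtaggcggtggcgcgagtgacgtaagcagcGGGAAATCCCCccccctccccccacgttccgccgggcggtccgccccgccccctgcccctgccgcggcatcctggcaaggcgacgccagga
Rela: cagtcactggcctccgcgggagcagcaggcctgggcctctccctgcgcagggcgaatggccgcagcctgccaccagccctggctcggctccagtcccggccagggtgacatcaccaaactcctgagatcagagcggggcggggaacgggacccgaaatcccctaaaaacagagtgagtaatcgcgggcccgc
The match of Nfkbia began at position -29 from the start site, that of Nfkbie at -106, and those of Tnfaip3 at -125 and -12. The capitals of Rel cover a pair of overlapping matches that began at -92 and -91.

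Before any treatment the pool of transcripts was dominated by a few of the genes. Levels between genes were compared as CPM per kilobase of the longest principal transcript. In WT Control at 0 h, Rela, which encodes the transactivating subunit p65, stood highest at 36.0 ± 1.55 CPM per kb (SD, n = 3). Nfkbia, which encodes IkBalpha, followed at 33.6 ± 0.610 and Nfkb1, the gene of p105 and its product p50, at 26.6 ± 1.81 CPM per kb. Nfkb2 (p100 and p52) stood at 15.7 ± 1.21 CPM per kb. The ranges of these 4 genes did not overlap those of their neighbours. Below them Nfkbib, Relb, Tnfaip3 and Nfkbiz lay between 11.4 and 7.79 CPM per kb, and each overlapped the next. Nfkbie, at 6.46 ± 0.598 CPM per kb, and Rel, at 3.17 ± 0.133 CPM per kb, were the lowest. With the merged length of all exons, Nfkbia came first, Rela second and Nfkb1 took the fifth place, because annotated exons of Nfkb1 add up to 12061 bases against 4117 in its principal transcript.

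**Figure D1:**
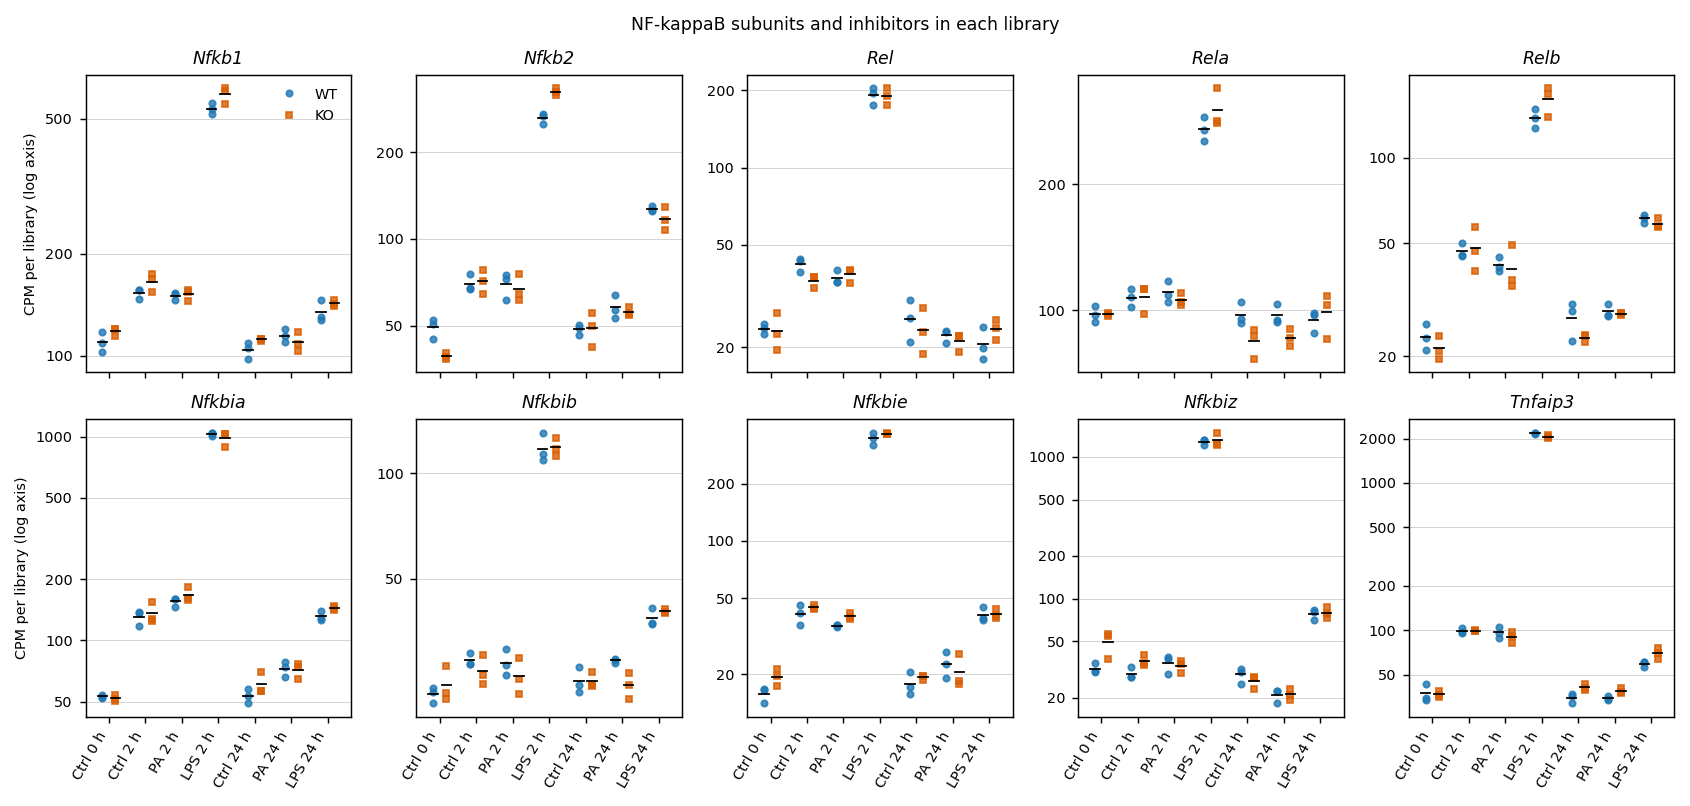
CPM of each gene in every library (log axis, different for each gene), for Control (Ctrl), palmitate (PA) and LPS at 0 h, 2 h and 24 h. Circles are WT libraries, squares are libraries labelled KO and bars are group means (n = 3). LPS at 2 h stands above every other condition for each of the 10 genes, with Tnfaip3 at 2161 to 2189.6 CPM in WT.

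LPS at 2 h was compared with Control at 2 h to ask how the pathway's own genes respond early to a Toll-like receptor ligand. All 10 genes rose in both genotypes, from 2.52-fold (Rela) to 43.4-fold (Nfkbiz) in WT, and in WT the estimates of the inhibitor genes were above those of the subunit genes except for Nfkbib, which lay below Rel. In the quasi-likelihood test of edgeR with Benjamini-Hochberg adjustment, 14% of all genes tested were called higher in WT and 14.7% in the libraries labelled KO. The groups did not overlap for any of the 10 genes in either genotype, against 19.2% and 19% of all genes that were higher without overlap. In WT the neutrophil list moved too, at 45.4 to 65.9 CPM with LPS and 19.2 to 32.9 CPM in Control, while in KO the ranges overlapped (118 to 203 and 64.4 to 124 CPM), and its part in the result was not tested. The highest adjusted p among the 10 genes was 1.74e-17 in WT and 2.03e-19 in KO.

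Among the subunits, the genes of the 3 transactivating proteins p65, c-Rel and RelB differed in size of response. Rela had 102, 112 and 108 CPM in the WT Control libraries and 269, 290.0 and 254 CPM with LPS, a log2 fold change of 1.33 ± 0.078 (SE). Rel, the gene of c-Rel, went from 39.1, 43.2 and 44.0 CPM to 195, 175 and 204 CPM (log2 fold change 2.18 ± 0.105). Relb, the gene of RelB, which pairs chiefly with p52 and p100, went from 45.3, 50.1 and 45.3 CPM to 149, 139 and 128 CPM (1.55 ± 0.106). Every LPS library stood above every Control library for all 3 genes, and Rel had the largest estimate of the subunits. The precursor genes moved between them. Nfkb1 rose from 156, 156 and 147 CPM to 555, 534 and 515 CPM (log2 fold change 1.80 ± 0.062). Nfkb2 rose from 67.6, 75.6 and 67.1 CPM to 267, 272 and 250.2 CPM (1.90 ± 0.085).

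The classical IkB genes encode the proteins that mask the dimers. Nfkbia rose from 118, 136 and 138 CPM in WT Control to 1046, 1011 and 1037 CPM with LPS (log2 fold change 2.98 ± 0.077). Nfkbie, the gene of IkBepsilon, rose from 36.2, 46.3 and 41.6 CPM to 349, 370.1 and 321 CPM (3.06 ± 0.091). Nfkbib, the gene of IkBbeta, rose from 28.6, 30.8 and 28.6 CPM to 131, 113 and 109 CPM (1.99 ± 0.097). The groups were apart for each gene. Nfkbib shares 42 exonic bases with Sirt2 on the other strand, which had a mean of 484 counts, and 314 exonic bases with Ccer2, also on the other strand, for which no counts were used here. Nfkb2 shares 299 exonic bases with Psd, an antisense neighbour with no more than 5 counts in any library, and 531 with the antisense RNA gene AC114539.1, for which no counts were used here. The strand setting of the counting is not given, so the counts of Nfkbib and Nfkb2 are uncertain.

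The steepest changes belonged to the atypical inhibitor and to the deubiquitinase. Nfkbiz encodes IkBzeta, a nuclear IkB protein needed for secondary response genes such as Il6. It stood at 32.7, 27.8 and 28.2 CPM in WT Control and at 1306, 1221 and 1304 CPM with LPS, a log2 fold change of 5.44 ± 0.110. Tnfaip3 encodes A20, which edits ubiquitin chains on signalling adaptors and so restrains the kinase complex. It went from 97.4, 96.6 and 103 CPM to 2179, 2189.6 and 2161 CPM (4.46 ± 0.066). The order of levels per kb in WT with LPS at 2 h became Nfkbia (653 ± 11.5 CPM per kb), Tnfaip3 (492 ± 3.33) and Nfkbiz (310.3 ± 11.8), ahead of Nfkbie (142 ± 10.2), Nfkb1 (129.9 ± 4.93) and Rela (99.7 ± 6.75). The ranges of Nfkbie and Nfkb1 overlapped and the other neighbours among these 6 did not. Rel stayed last, at 25.6 ± 1.97 CPM per kb. With merged exons the first 4 places were the same and Nfkb1 fell from rank 5 to rank 8.

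**Figure D2:**
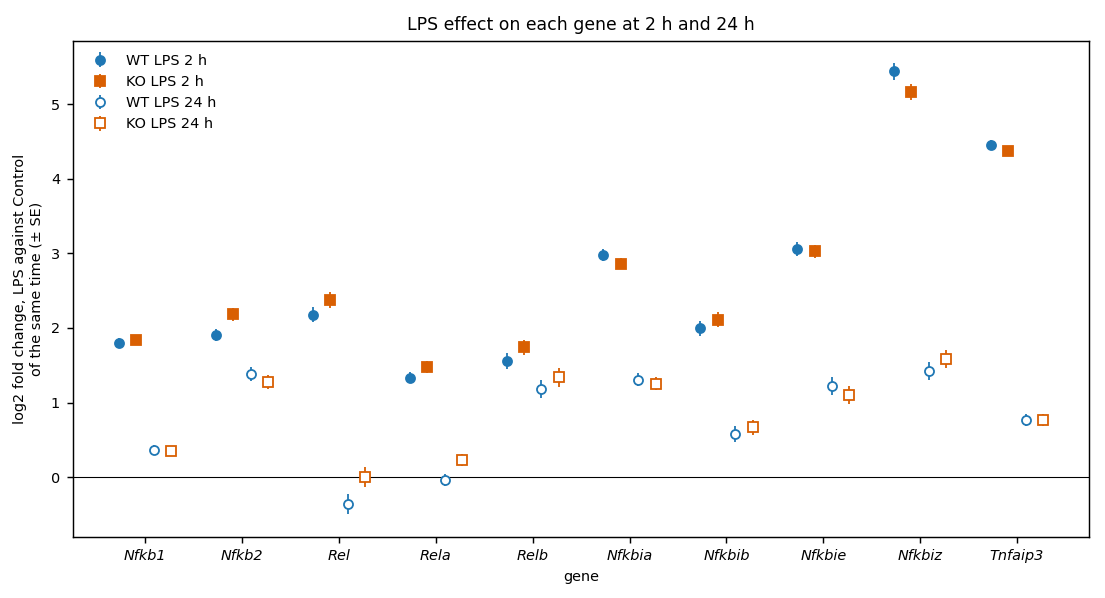
Log2 fold change of LPS against Control of the same time for each gene, at 2 h (filled) and 24 h (open), in WT (circles) and in the libraries labelled KO (squares), with SE from the fit over 42 libraries. Filled symbols lie between 1.33 (Rela, WT) and 5.44 (Nfkbiz, WT), and all open symbols lie at or below 1.59 (Nfkbiz, KO).

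LPS at 24 h was compared with Control at 24 h, which asks what remained of the response. In WT 8 of the 10 genes were higher, Rel was lower and Rela did not pass the test. In the libraries labelled KO 9 were higher and Rel did not pass. Of all genes tested, 19.6% were called higher and 19.9% lower in WT, and 19.9% and 21% in KO. The median log2 fold change of the 10 genes was 0.97 in WT and 0.93 in KO, beside -0.01 over all genes tested in WT. The neutrophil list was lower with LPS at 24 h, at 30.6 to 33.0 CPM against 50.8 to 60.9 CPM in WT and at 41.996 to 63.0 CPM against 127 to 198 CPM in KO, and its part in the result was not tested.

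Nfkb2 and Relb, whose products form the dimer of the alternative pathway, stayed the most raised of the subunits. Nfkb2 had 46.6, 49.0 and 50.4 CPM in WT Control and 125, 130.2 and 126 CPM with LPS at 24 h (log2 fold change 1.38 ± 0.091, adjusted p = 2.93e-18). Relb had 30.6, 29.0 and 22.6 CPM against 61.6, 59.1 and 62.8 CPM (1.18 ± 0.120, adjusted p = 5.44e-12). Nfkb1 rose less, from 98.0, 109 and 105 CPM to 145, 130.4 and 128 CPM (0.37 ± 0.067, adjusted p = 1.00e-05). The LPS libraries were above the Control libraries for all 3 genes.

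Rela and Rel, by contrast, were back near their Control level. Rela lay at 105, 95.1 and 93.2 CPM in WT Control and at 88.5, 98.6 and 97.4 CPM with LPS (log2 fold change -0.04 ± 0.083, adjusted p = 0.780). In the libraries labelled KO it was 89.9, 87.1 and 76.7 CPM against 108, 103 and 85.5 CPM (0.23 ± 0.083, adjusted p = 0.0213), and these groups overlapped. That call was lost without KO Control library 3 (adjusted p = 0.192), KO LPS library 1 (0.177) or KO LPS library 2 (0.0858), and when all genes with a count were kept (0.0519). Rel was at 21.1, 26.1 and 30.4 CPM in WT Control and at 24.0, 19.9 and 18.1 CPM with LPS (-0.36 ± 0.132, adjusted p = 0.0248). These groups overlapped too, and the call was lost without WT Control library 2 (adjusted p = 0.0505) or 3 (0.282), without WT LPS library 2 (0.0698) or 3 (0.156), and when only the libraries compared were fitted (0.0776). In KO the log2 fold change of Rel was within 0.264 of 0 on either side (95% CI).

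All 5 inhibitor genes were still raised at 24 h in both genotypes. Nfkbia stood at 126, 139 and 129 CPM with LPS against 53.1, 57.4 and 49.1 CPM in WT Control (log2 fold change 1.31 ± 0.090), and Nfkbie at 45.0, 38.2 and 39.2 CPM against 20.5, 15.8 and 17.0 CPM (1.22 ± 0.120). Nfkbib had a log2 fold change of 0.58 ± 0.106. Nfkbiz, with 79.9, 70.5 and 83.1 CPM against 31.7, 25.2 and 30.6 CPM (1.43 ± 0.121), was 2.69-fold higher, where it had been 43.4-fold higher at 2 h. Tnfaip3, with 60.9, 56.1 and 60.6 CPM against 35.7, 37.2 and 32.1 CPM (0.77 ± 0.087), was 1.70-fold higher after 22.0-fold at 2 h. No LPS library fell within the Control range for any of the 5 genes in WT, with Nfkbib at 37.2 to 41.2 CPM against 23.9 to 28.1 CPM. The share of all genes whose groups were apart at 24 h is not given here, so such separation is only described.

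The difference between the LPS effects at both times was tested as a contrast of the 4 groups. The effect at 24 h was smaller than that at 2 h for 9 of 10 genes in WT and for 10 of 10 in the libraries labelled KO, where 18.1% and 19% of all genes were called lower in this contrast. The largest reductions were those of Nfkbiz (log2 difference -4.01 ± 0.164 in WT and -3.58 ± 0.162 in KO) and Tnfaip3 (-3.69 ± 0.109 and -3.61 ± 0.105). Rel followed at -2.54 ± 0.169 in WT, below the classical IkB genes at -1.41 (Nfkbib) to -1.84 (Nfkbie). Nfkb2 changed least among the genes called in WT (-0.52 ± 0.125, adjusted p = 7.34e-04). Relb gave -0.37 ± 0.160 in WT (adjusted p = 0.0701) and -0.40 ± 0.162 in KO (adjusted p = 0.0498), and the KO call was lost in 35 of 46 alternative fits (adjusted p from 0.00819 to 0.191).

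The balance of classical IkB to subunit transcripts was described by the ratio of their summed CPM per kb in each library. The ratio was 0.538 to 0.588 in WT Control at 0 h, 0.843 to 0.960 in Control at 2 h and 2.07 to 2.20 with LPS at 2 h, and no ranges met. At 24 h it was 0.557 to 0.603 in Control and 0.840 to 0.891 with LPS. With palmitate the ratio was 1.00 to 1.09 at 2 h and 0.649 to 0.741 at 24 h in WT, above the Control range at both times. In KO it was 1.03 to 1.22 with palmitate at 2 h against 0.835 to 0.950 in Control, and the ranges overlapped at 24 h (0.661 to 0.748 and 0.629 to 0.717). In the libraries labelled KO the ratio with LPS at 2 h was 1.61 to 1.95, below the WT range, and in Control at 24 h it was 0.629 to 0.717, above the WT range. The neutrophil list was also apart between the genotypes in both conditions, and its part in the ratio was not tested. With merged exon lengths every group mean was higher (WT LPS at 2 h 3.22 in place of 2.13), and Control and LPS groups kept their order. The sum of the 5 subunits in WT rose from 126 ± 5.19 CPM per kb in Control at 2 h to 401 ± 15.9 with LPS at 2 h, and that of the 3 IkB genes from 114 ± 9.28 to 853 ± 14.7 (SD, n = 3).

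**Figure D3:**
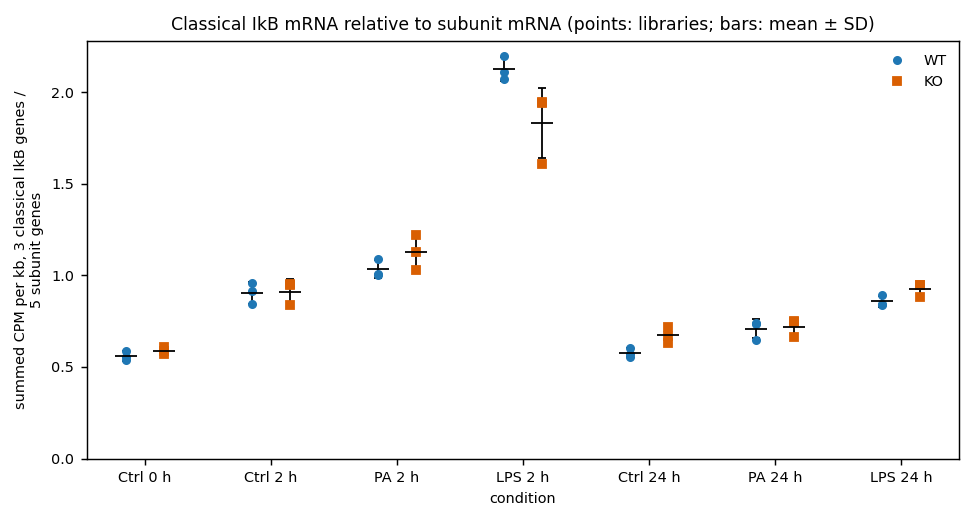
Ratio of summed CPM per kb of Nfkbia, Nfkbib and Nfkbie to that of the 5 subunit genes, in Control (Ctrl), palmitate (PA) and LPS. Circles are WT libraries, squares those labelled KO, and bars are mean ± SD (n = 3). LPS at 2 h lies at 1.61 to 2.20 and every other library at or below 1.22.

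The genes also moved in Control cultures, which were compared with Control at 0 h because these groups are the baselines of all treatments. At 2 h 8 of 10 genes were called in each genotype. In WT all 8 were higher, where 8.41% of all genes were, and in the libraries labelled KO 7 were higher and 1 lower, where 6.5% and 5.59% were. Tnfaip3 rose from 33.8, 43.6 and 34.7 CPM to 97.4, 96.6 and 103 CPM in WT (log2 fold change 1.41 ± 0.080), and Nfkbia from 52.3, 54.2 and 52.8 CPM to 118, 136 and 138 CPM (1.30 ± 0.088). Nfkbie gave 1.40 ± 0.118 and Relb 1.01 ± 0.121. The groups were apart for these 4 genes, and the corresponding values in KO were 1.43, 1.38, 1.21 and 1.17. Nfkb1, Nfkb2 and Rel rose by 0.48 to 0.86 on the log2 scale over both genotypes. Rela was not called in either genotype (0.13 in WT and 0.14 in KO). Nfkbib was called in WT (0.33 ± 0.107, adjusted p = 0.0310) and not in KO (0.14 ± 0.110, adjusted p = 0.491), and the WT call was lost in 7 of 46 alternative fits (adjusted p up to 0.146). The early LPS effects above are therefore measured from a Control level at 2 h that was itself raised for most of the genes. In WT the neutrophil list fell from 47.2 to 54.3 CPM at 0 h to 19.2 to 32.9 CPM at 2 h. In KO its ranges overlapped (72.8 to 81.2 and 64.4 to 124 CPM), and its part in these Control changes was not tested.

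By 24 h in Control 0 genes of the 10 were called in WT against 0 h, in the quasi-likelihood test of edgeR and in DESeq2, and 0 had an unadjusted p under 0.05. Of all genes 12.1% were called. In the libraries labelled KO 2 genes were called, where 8.17% of all genes were. Nfkbiz was lower (23.1, 27.3 and 27.9 CPM against 54.6, 37.3 and 56.5 CPM, log2 fold change -0.90 ± 0.129, adjusted p = 1.05e-06). Nfkb2 was higher by 0.31 ± 0.102 (adjusted p = 0.0484), a call lost in 29 of 46 alternative fits. Nfkbiz was also the gene that fell at 2 h in KO Control (-0.44 ± 0.121, adjusted p = 0.00974), to 34.0, 35.1 and 40.0 CPM, which overlapped the 0 h range. This call was lost without KO Control 0 h library 1 (adjusted p = 0.0845) or 3 (0.136), or without KO Control 2 h library 1 (0.0584). Mean Nfkbiz in Control at 0 h, 2 h and 24 h was 49.5, 36.4 and 26.1 CPM in KO and 32.1, 29.6 and 29.2 CPM in WT. These Nfkbiz and Nfkb2 calls and the genotype calls at 0 h below share the KO Control 0 h libraries, so they are not independent findings. The neutrophil list stood at 127 to 198 CPM in KO Control at 24 h and at 72.8 to 81.2 CPM at 0 h. In WT its ranges at these times overlapped (50.8 to 60.9 and 47.2 to 54.3 CPM), and its part in the result was not tested.

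Palmitate was compared with the same Control libraries as LPS, to ask whether transcripts of these genes change with a fatty acid load. Degradation of IkB proteins and entry of the dimers into the nucleus were not measured. Of 40 tests (10 genes, both times, both genotypes) 1 was called. Of all genes, 0.275% (WT) and 0.112% (KO) were called at 2 h and 0.852% and 0.877% at 24 h. The gene called was Nfkbia in WT at 24 h, with 78.5, 73.7 and 65.9 CPM against 53.1, 57.4 and 49.1 CPM in Control, a log2 fold change of 0.45 ± 0.095 (adjusted p = 0.00487). The groups did not overlap. In WT the neutrophil list stood at 43.1 to 55.7 CPM with palmitate and 19.2 to 32.9 CPM in Control at 2 h, and at 61.0 to 83.6 CPM and 50.8 to 60.9 CPM at 24 h, and its part in the result was not tested. In KO its ranges overlapped at both times. The fibroblast list in KO at 24 h was lower with palmitate, at 0 to 6.42 CPM against 35.9 to 124 CPM in Control, and its part was not tested either. The call was lost without WT Control library 3 (adjusted p = 0.0982) or without WT palmitate library 1 (0.0704).

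Nfkbia had the smallest adjusted p of the 10 genes in each of the 4 palmitate comparisons. At 2 h it stood at 146, 160.4 and 159 CPM with palmitate in WT (log2 fold change 0.25 ± 0.081, adjusted p = 0.312). In the libraries labelled KO it stood at 182, 158 and 162 CPM against 155, 127 and 125 CPM (0.30 ± 0.080, adjusted p = 0.198), a difference called without KO Control library 1 (adjusted p = 0.0266) and when all genes with a count were kept (0.0389). At 24 h in KO the groups overlapped (0.25 ± 0.092, adjusted p = 0.339). Nfkbiz at 24 h leaned the other way, with 22.5, 18.3 and 22.4 CPM in WT against 31.7, 25.2 and 30.6 CPM (-0.46 ± 0.144, adjusted p = 0.151) and -0.32 ± 0.143 in KO (adjusted p = 0.541). The WT value was past the threshold in DESeq2 (adjusted p = 0.0414) and with all genes kept (0.0132). For the other 8 genes the estimates over the 4 comparisons reached from -0.25 (Rel, WT, 24 h) to 0.37 (Nfkbie, WT, 24 h) on the log2 scale. Tnfaip3, the gene with the highest CPM under LPS at 2 h, gave -0.03 and -0.01 in WT, and the 95% CIs of all 40 estimates lay within 0.748 of 0. The difference between the palmitate effects at 24 h and 2 h was called for 0 of the 10 genes in either genotype (unadjusted p under 0.05 for 2 in each), where 0.241% and 0.172% of all genes were called. By DESeq2 2 genes passed in WT, Nfkbiz (-0.72) and Nfkbie (0.58).

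Whether transcripts of the pathway depended on the Irf5 label was asked by setting KO against WT in all 7 conditions. Of 70 tests 2 were called, both in Control at 0 h, where 12.5% of all genes were called (1448 genes, and 754, 898 or 916 on leaving out KO library 3, KO library 1 or WT library 3). Of all genes, 0.49% were called in Control, 0.146% with palmitate and 0.465% with LPS at 2 h, and 0.12%, 0.0688% and 0.146% at 24 h in the same order. Nfkbiz had 54.6, 37.3 and 56.5 CPM in the libraries labelled KO at 0 h and 31.1, 30.2 and 34.9 CPM in WT, a log2 difference of 0.61 ± 0.121 (adjusted p = 3.70e-04). Nfkb2 had 39.1, 38.5 and 40.3 CPM in KO and 50.7, 52.4 and 45.1 CPM in WT (-0.33 ± 0.100, adjusted p = 0.0241). No KO library fell within the WT range for either gene. Both calls rest on the KO Control libraries at 0 h that also enter the Control comparisons over time above, so these results are not independent. The Nfkb2 call was lost on leaving out WT library 1 (adjusted p = 0.0741) or 2 (0.104), or KO library 1 (0.0693), 2 (0.0651) or 3 (0.0570). In the same libraries the neutrophil list summed to 72.8 to 81.2 CPM in KO and 47.2 to 54.3 CPM in WT, and the fibroblast list to 37.8 to 63.3 CPM in KO and 0.132 to 0.904 CPM in WT. Their part in the result was not tested, and in bulk samples a change in the number of cells of a type and a change in RNA per cell cannot be told apart.

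**Figure D4:**
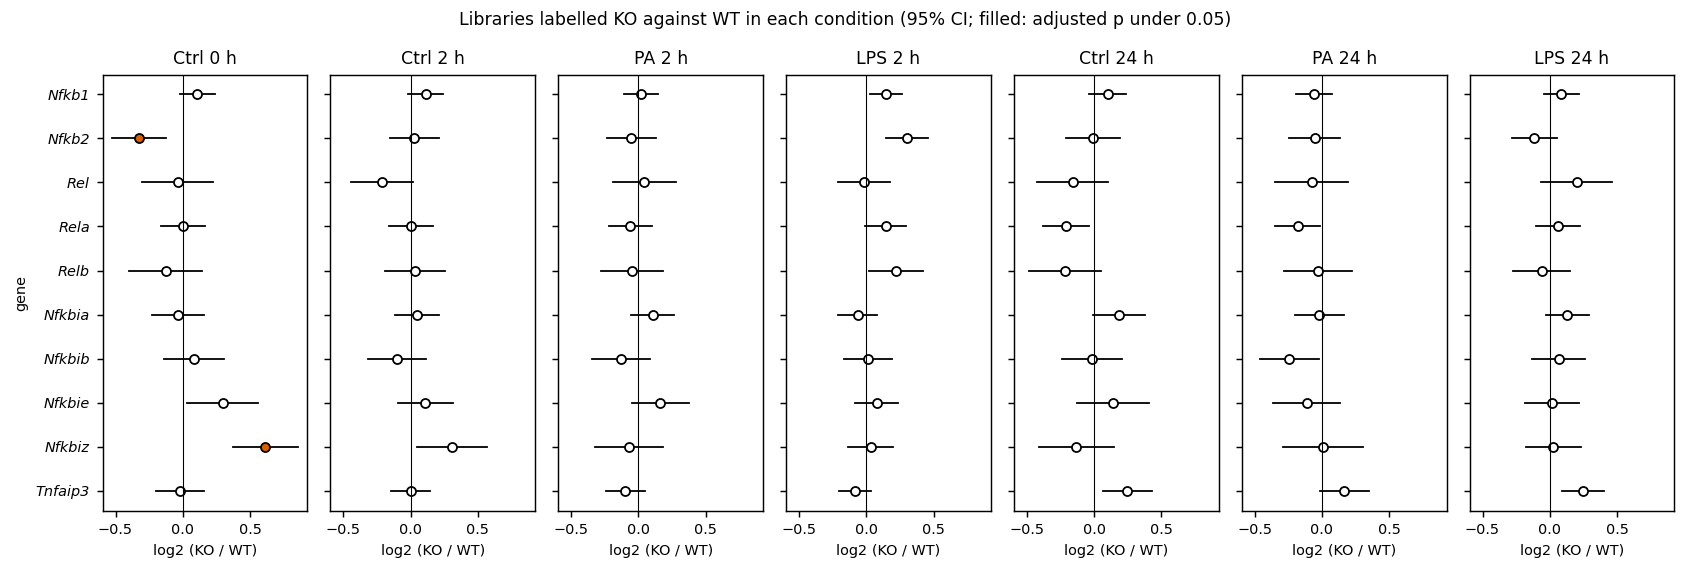
Log2 ratio of libraries labelled KO to WT for each gene in the 7 conditions (Ctrl, Control and PA, palmitate), with 95% CI. Filled points are the 2 called at an adjusted p under 0.05, Nfkb2 (-0.33) and Nfkbiz (0.61) in Control at 0 h. All other points lie between -0.24 and 0.31.

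With LPS at 2 h the nearest to a difference was again Nfkb2, in the opposite direction to that at 0 h. It had 323, 316 and 333 CPM in KO and 267, 272 and 250.2 CPM in WT, a log2 difference of 0.30 ± 0.079 (adjusted p = 0.0615), and no ranges met. The adjusted p was 0.0418 in DESeq2 and 0.0316 with all genes kept. The neutrophil list stood at 118 to 203 CPM in KO and 45.4 to 65.9 CPM in WT here, and its part in the result was not tested. Tnfaip3 was 0.25 higher on the log2 scale in KO both in Control at 24 h (adjusted p = 0.882) and with LPS at 24 h (adjusted p = 0.214), without overlap in either. The neutrophil list was at 127 to 198 CPM in KO against 50.8 to 60.9 CPM in WT in the first, and at 41.996 to 63.0 CPM against 30.6 to 33.0 CPM in the second.

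Whether the treatment effects depended on the genotype label was tested by interaction terms. Of 40 such tests 0 were called by edgeR or DESeq2, and 3 had an unadjusted p under 0.05 among LPS and palmitate at 2 h and LPS at 24 h. Of all genes 0% were called for LPS at 2 h, 0.0086% for LPS at 24 h and 0% for palmitate at either time. At unadjusted p under 0.05 there were 810, 628, 486 and 411 genes for LPS at 2 h, LPS at 24 h, palmitate at 2 h and palmitate at 24 h. By DESeq2 these comparisons gave 1, 2, 0 and 0 called genes. The estimates for the 10 genes ran from -0.38 to 0.36 on the log2 scale, and the 95% CIs lay within 0.742 of 0. For LPS at 2 h the smallest adjusted p was 0.630 (Nfkb2, 0.28), and Nfkbiz, the most induced gene, gave -0.28 with a 95% CI from -0.58.

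Other genes of the pathway were described from 5 lists with 56 genes, all of which were tested. With LPS at 2 h 39 were higher and 2 lower in WT, and in those labelled KO 41 were higher and 3 lower. Of all genes tested, 14% were higher and 9.1% lower in WT, and 14.7% and 9.16% in KO, and the counts of the single lists at 2 h are to be read against these shares. Their median log2 fold change was 0.71 in WT, where that of the 10 subunit and inhibitor genes was 2.09 and that of all genes -0.01. At 24 h 33 were higher and 5 lower in WT and 33 and 7 in KO (median 0.37 and 0.54), where 19.6% of all genes were higher and 19.9% lower in WT, and 19.9% and 21% in KO.

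Of the 4 other IkB-like genes, Nfkbid (IkBNS) and Bcl3 rose at 2 h in WT (log2 fold change 2.16 ± 0.154 and 1.44 ± 0.115), and at 24 h Bcl3 was still higher (1.67 ± 0.144). In the kinase group of 10 genes, 6 were higher and 2 lower at 2 h. Ikbke, the gene of the inducible kinase IKKepsilon, rose by 1.02 ± 0.119 at 2 h and by 2.16 ± 0.122 at 24 h, and Tab1 and Map3k14, the gene of the kinase NIK, were lower at 2 h (-1.33 ± 0.230 and -0.51 ± 0.131). Of 15 receptor adaptor genes 11 were higher at 2 h in WT, among them Traf1 (3.04 ± 0.177) and Birc3 (2.18 ± 0.094). At 24 h 9 were higher, among them Irak3 (2.38 ± 0.120), an inhibitory member of the IRAK family, and 2 were lower, Irak1 (-0.29 ± 0.074) and Ripk1 (-0.27 ± 0.071).

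The list of ubiquitin editors and A20 partners held 14 genes, of which 7 were higher at 2 h in WT. Tnip1, whose product binds A20, went from a mean of 246 to 1466 CPM (2.57 ± 0.064), and N4bp1 rose by 1.70 ± 0.073. At 24 h Otulin, which removes linear ubiquitin chains, was lower (-0.37 ± 0.073). All 13 textbook NF-kappaB targets were higher at 2 h in both genotypes and 12 of 13 at 24 h. Tnf went from a mean of 72.9 to 1988 CPM at 2 h (4.77 ± 0.084). Ccl5 was the target with the smallest adjusted p at 24 h (8.29 ± 0.166), and Ccl4, which rose by 5.10 ± 0.112 at 2 h, was not called at 24 h in WT.

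**Figure D5:**
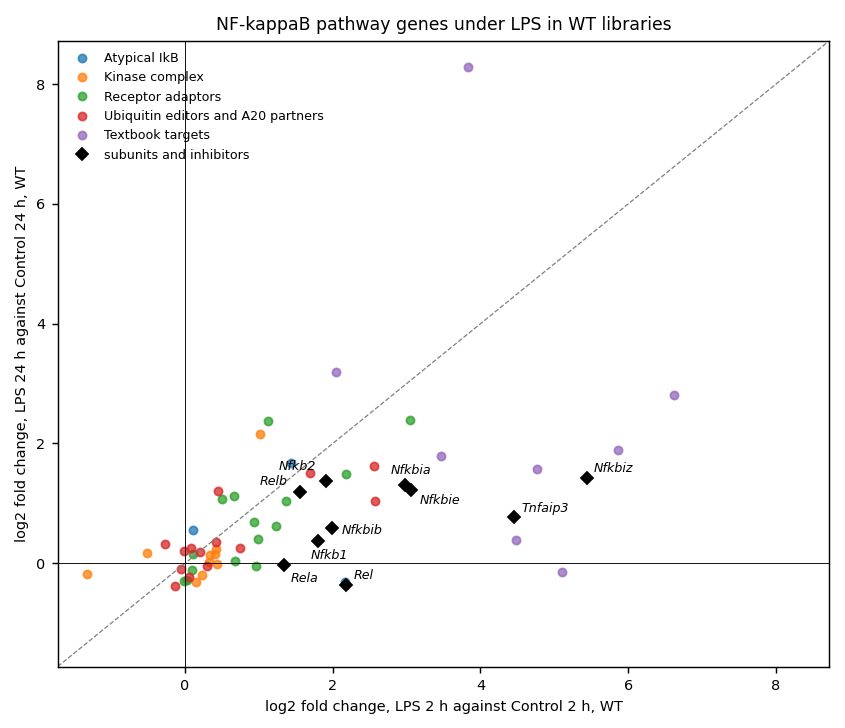
Log2 fold change with LPS at 24 h (vertical) against that at 2 h (horizontal) in WT, for the 10 subunit and inhibitor genes (black diamonds, named) and for the pathway genes by list (coloured circles). The 6 pathway genes with a Control mean under 1 CPM are left out. All 10 diamonds lie below the dashed line of equal effects, and Nfkbiz and Tnfaip3 lie farthest from it among the diamonds.

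The genes whose level pattern was most like that of each member were found by Pearson's r of log2 CPM over the 14 group means, among 11033 genes that averaged 1 CPM or more. These are descriptions over points that share libraries and include the 2 LPS groups at 2 h, where all 10 genes were highest. Nlrp3, the inflammasome sensor gene, was the nearest for both Nfkb1 (r = 0.998) and Tnfaip3 (r = 0.997). Tnf was the nearest for Nfkbia (r = 0.995), and Icam1, the gene of an adhesion molecule, for Nfkb2 (r = 0.989). The nearest for Rel was Gna13 (r = 0.996), for Rela Kdm6b (r = 0.991) and for Relb Rnf19b (r = 0.989). For Nfkbib it was C9orf72 (r = 0.996), for Nfkbie Olr1 (r = 0.992) and for Nfkbiz Rnd1 (r = 0.990).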

How the data were processed

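RNA from BMDM was made into ribosome-depleted, stranded total RNA libraries. The authors deposited raw counts per gene for all libraries in 1 table. STAR 2.7.3a and fastp 0.19.11, and the builds mm10 and mm9, are named in the submitters' processing notes, whereas the strand setting and annotation of the counting are not given in the sources used here. Columns name the group and not the replicate, so libraries are numbered in column order within a group.

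The deposited counts were filtered (filterByExpr), scaled by TMM and tested with the quasi-likelihood F test of edgeR 4.0.16 (R 4.3.3, limma 3.58.1) in 1 model of 14 groups and 42 libraries, with 27 contrasts. P-values were adjusted by Benjamini-Hochberg over all 11624 genes that passed the filter, and calls required an adjusted p below 0.05. DESeq2 1.42.0, which the study used, served as an alternative, beside RLE size factors, no filter, only the libraries compared, a threshold on unadjusted p and fold change, and leaving out each library. Levels are CPM with TMM scaling. No 2 libraries of a group were within sampling noise of each other (chi-square per degree of freedom 1.93 to 9.32), so all were kept as separate libraries. Symbols matched 32620 identifiers, and 12146 rows had no count. Gene lengths, overlaps and coordinates are those of GRCm38, and promoter windows come from RefSeq. SE and CI are Wald values from the fit. The fit was also run on counts simulated with its own dispersions, which checks the code and not how well the model describes these libraries. All 10 genes were tested in each comparison. Where few were called, the called genes and those nearest the threshold or at the ends of the range are named, chosen after their values were seen, and the rest are given by range. Of each pathway list at most 2 called genes per direction are named, those with the smallest adjusted p. Ccl4 at 24 h with LPS falls outside that rule and was chosen after its values were seen. The genes and lists were chosen with earlier results of these data known.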

Additional observations from a re-analysis of the deposited data

Results flagged for a closer look

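The effect of LPS differed between 2 h and 24 h, by the test of the difference itself (quasi-likelihood test of edgeR), for 9 of the 10 genes in WT and 10 of 10 in the libraries labelled KO, and each difference pointed to a smaller effect at 24 h. Of all genes tested, 18.1% in WT and 19% in KO were called lower in this contrast. All values are log2 differences between the effects. Of the subunit genes, Nfkb1 gave -1.44 in WT and -1.48 in KO, Nfkb2 -0.52 and -0.91, Rel -2.54 and -2.38, and Rela -1.37 and -1.24. Relb passed in KO at -0.40 (adjusted p = 0.0498), a call lost in 35 of 46 alternative fits. Of the inhibitor genes, Nfkbia gave -1.67 and -1.61, Nfkbib -1.41 and -1.44, and Nfkbie -1.84 and -1.93. Nfkbiz gave -4.01 and -3.58, and Tnfaip3 -3.69 and -3.61.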

How the results depend on the processing

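No paired analysis was possible because the columns carry no replicate number. Of 270 tests of the 10 genes, 15 changed their call in some alternative and 0 changed direction while called. The 10 of 10 calls for LPS at 2 h held in both genotypes under RLE scaling, without the filter on low counts, with only the libraries compared, in DESeq2 and on leaving out each library. For palmitate at 2 h in KO, 0 genes were called, with 1 when all genes with a count were kept and 0 to 1 on leaving out a library. For palmitate at 24 h in WT, 1 was called, with 2 when all genes were kept, 2 by DESeq2 and 0 to 1 on leaving out a library. For KO against WT in Control at 0 h, 2 were called, with 0 under an unadjusted p under 0.05 with a log2 fold change over 1, and 1 to 2 on leaving out a library. For KO against WT with LPS at 2 h, 0 were called, with 1 when all genes were kept, 1 by DESeq2 and 0 to 1 on leaving out a library. For the palmitate effect at 24 h minus 2 h in WT, 0 were called, with 1 when all genes were kept, 2 by DESeq2 and 0 to 1 on leaving out a library. For Control at 24 h against 0 h in KO, 2 were called, with 1 under RLE, 1 when all genes were kept, 1 with only the libraries compared and 1 to 2 on leaving out a library. The cause was not tested. Merged exon lengths, chosen as an alternative after seeing the data, moved the IkB to subunit ratio in all 14 groups, to between 0.804 and 3.22.

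Among all genes, KO against WT in Control at 0 h gave 1448 calls, the base of the 12.5% above, which dropped to 754 when KO library 3 was left out, to 898 for KO library 1 and to 916 for WT library 3. Counts also moved by more than 1.5 times in the smaller comparisons. On leaving out 1 library, palmitate gave 9 to 38 (WT) and 6 to 15 (KO) at 2 h and 52 to 123 and 49 to 121 at 24 h. KO against WT gave 12 to 71 in Control and 5 to 28 with palmitate at 2 h, and 7 to 18 in Control, 5 to 24 with palmitate and 9 to 27 with LPS at 24 h. The palmitate effect at 24 h minus 2 h gave 12 to 53 in WT and 5 to 26 in KO. Other settings gave the following. Palmitate at 2 h gave 32 in WT (76 with all genes kept and 71 with only the libraries compared) and 13 in KO (34 and 20). At 24 h it gave 99 in WT (167 with all genes kept) and 102 in KO (182 and 245). KO against WT gave 57 in Control at 2 h (176 and 235), 17 with palmitate at 2 h (130 and 77, and 29 by DESeq2), 54 with LPS at 2 h (190 and 22), 14 in Control at 24 h (55 and 57), 8 with palmitate at 24 h (75 and 20, and 15 by DESeq2) and 17 with LPS at 24 h (112 and 8, and 33 by DESeq2). With all genes kept, the interactions gave 43 and 26 for LPS at 2 h and 24 h and 16 and 9 for palmitate. The palmitate effect at 24 h minus 2 h gave 28 in WT (123 and 99, and 77 by DESeq2) and 20 in KO (103 and 53). Depth limited the lowest levels, since 3 counts were worth up to 1.05 CPM.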

Other observations

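With palmitate at 24 h, 3 of the 56 other pathway genes were called, and they were the same genes in both genotypes. Of all genes tested, 0.852% were called in WT and 0.877% in KO. Ccl4, a chemokine gene, was lower in WT (log2 fold change -0.95 ± 0.178, adjusted p = 8.31e-04) and in the libraries labelled KO (-1.04 ± 0.176, adjusted p = 1.75e-04), by edgeR. Sod2, the gene of mitochondrial superoxide dismutase, was higher (0.39 ± 0.101 and 0.47 ± 0.099), and so was Tnip3, the gene of an A20-binding protein (0.57 ± 0.133 and 0.56 ± 0.130). In WT the neutrophil list was higher with palmitate (61.0 to 83.6 CPM against 50.8 to 60.9 CPM in Control). In KO the fibroblast list was lower (0 to 6.42 CPM against 35.9 to 124 CPM), and the part of these lists was not tested.

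In Control at 0 h, the libraries labelled KO had 8 of the 56 genes higher and 1 lower, in a comparison in which 12.5% of all genes were called. The counts lie near that share and are not read as a result about these genes. Among them Birc3 was higher by 0.42 ± 0.112 (adjusted p = 0.00942), Irak3 by 0.50 ± 0.125 (adjusted p = 0.00543) and Tbk1 by 0.30 ± 0.073 (adjusted p = 0.00384), whereas Ikbkg, the gene of the regulatory subunit NEMO, was lower (-0.22 ± 0.075, adjusted p = 0.0402). Ptgs2 was higher by 1.92 ± 0.463 (adjusted p = 0.00158 by edgeR), at a mean of 6.51 against 1.65 CPM. Il1b (1.40 against 0.157 CPM) and Nfkbid (14.7 against 10.1 CPM) were also called higher. The groups overlapped for Irak3 and Nfkbid. The neutrophil and fibroblast lists were also higher in these KO libraries, and their part in the result was not tested.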
